A study of Mus musculus with 7 samples.

Results

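Gene desert regions were defined as autosomal regions of accessible chromatin that overlapped no gene body of the GENCODE M21 annotation and lay over 50000 bp from the transcription start site (TSS) of any gene, whatever its type. Of 55680 consensus regions, 1531 (2.75%) met both criteria, and 68 further regions on the sex chromosomes met the distance and gene body criteria but were left out. The libraries were ATAC-seq, in which a transposase inserts adapters where DNA is exposed, from liver tissue of male C57BL/6N mice without further treatment. Young liver (3 months) was represented by 3 samples and aged liver (18 months) by 4. By the deposited design the 4 aged samples stem from 3 animals, since 1 animal gave 2 lobules that are not identified, whereas the study's methods count 4 biological replicates, so p-values over the 4 may rest on fewer independent animals. Total counts in regions were 4474652 to 25461110 per sample. The promoter regions of the hepatocyte genes Alb, Apoa1, Apob, Ttr, Cps1 and Tat had mean levels between 26.9 and 235 CPM (counts scaled to library size), and those of Cd3e, Myod1, Neurod1, Pdx1 and Ins2, genes of other lineages, held 0 consensus regions.

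Gene deserts are long stretches of the genome without protein-coding genes. Many of them flank genes that control development or cell identity, and enhancers inside them can act on promoters over long distances by looping. Accessible sites within deserts include such enhancers, sites bound by the insulator protein CTCF, and sequence repeats. Hepatocytes are the most abundant cells of the liver, and a level measured in bulk tissue cannot tell fewer cells with an open site from less opening per cell.

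The distance from a gene desert region to the nearest TSS ranged from 50009 to 447347 bp, with a median of 74930 bp and quartiles of 59722.5 and 107265.5 bp. The nearest region outside the limit lay at 49988 bp. The nearest TSS belonged to a protein-coding gene for 411 regions, to a processed pseudogene for 392 and to a lincRNA for 369. The definition rests on start sites, and 60 regions (3.92%) lay within 10 kb of the end of a gene body of any type, the closest at 68 bp, while 1194 lay over 50 kb from every gene body. The median distance to the nearest protein-coding gene body was 126 kb and the largest was 2075 kb. Their length ranged from 173 to 4676 bp, and the median was 685 bp against 869 bp over all regions.

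Examples of these sequences are given here because the regions that changed most differed in composition from each other. Each is 200 bp of the plus strand of GRCm38, read from the RefSeq GRCm38.p6 genome, and is named by its flanking protein-coding genes. All but the last decrease are the middle of the region. Capitals mark a match to a searched motif or, in the repeats, the first copy of the repeated unit.
Adgrb3 to 4931408C20Rik, largest increase, chr1:26235992-26236191: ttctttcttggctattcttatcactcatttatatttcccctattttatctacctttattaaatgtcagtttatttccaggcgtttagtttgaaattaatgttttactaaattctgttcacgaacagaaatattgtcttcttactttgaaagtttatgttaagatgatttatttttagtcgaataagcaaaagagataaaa
Trim52 to Slitrk1, second increase, chr14:107381863-107382062: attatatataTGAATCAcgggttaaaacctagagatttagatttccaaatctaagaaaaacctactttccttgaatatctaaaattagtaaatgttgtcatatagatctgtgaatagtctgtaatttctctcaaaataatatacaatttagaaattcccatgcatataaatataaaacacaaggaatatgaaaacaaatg
Ccnd1 to Tpcn2, largest decrease, chr7:145056593-145056792: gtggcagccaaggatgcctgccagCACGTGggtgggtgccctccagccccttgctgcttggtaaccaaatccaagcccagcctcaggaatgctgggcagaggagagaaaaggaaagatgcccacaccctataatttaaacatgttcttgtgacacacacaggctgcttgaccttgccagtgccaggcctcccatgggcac
Lrriq3 to Negr1, second decrease without overlap between the ages, chr3:155403569-155403768: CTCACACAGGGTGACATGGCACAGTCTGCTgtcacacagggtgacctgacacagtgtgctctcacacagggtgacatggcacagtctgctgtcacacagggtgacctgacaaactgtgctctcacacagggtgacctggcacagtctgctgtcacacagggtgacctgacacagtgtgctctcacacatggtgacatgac
Gdf6 to 2610301B20Rik, a further decrease, chr4:10137531-10137730: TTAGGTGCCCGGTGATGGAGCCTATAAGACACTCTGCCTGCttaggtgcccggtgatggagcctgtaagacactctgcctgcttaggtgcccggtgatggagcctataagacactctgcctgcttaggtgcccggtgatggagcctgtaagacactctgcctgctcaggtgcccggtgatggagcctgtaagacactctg
Wdr5 to Rxra, highest level, chr2:27598226-27598425: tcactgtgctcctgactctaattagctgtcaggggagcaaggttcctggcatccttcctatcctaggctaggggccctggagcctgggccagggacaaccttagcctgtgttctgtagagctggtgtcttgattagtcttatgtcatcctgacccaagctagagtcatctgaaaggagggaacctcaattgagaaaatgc
Rgs18 to Brinp3, farthest from any TSS, chr1:145972594-145972793: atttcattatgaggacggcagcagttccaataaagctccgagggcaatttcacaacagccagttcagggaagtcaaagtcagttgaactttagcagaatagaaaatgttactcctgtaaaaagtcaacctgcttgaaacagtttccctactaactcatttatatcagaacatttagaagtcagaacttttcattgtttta
The stretches from the largest increases were rich in A and T, with a GC content of 26% and 25%, and the second holds a match to the AP-1 motif TGANTCA. The stretch from the largest decrease had a GC content of 57% and holds the E-box CACGTG. The stretches beside Negr1 and Gdf6 are tandem repeats. Within them, 85.3% of bases matched the base 30 bp further on and 97.5% the base 41 bp further on, respectively.

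As a group, gene desert regions changed little in either direction with age, and the share that passed the test was close to that of all regions. In edgeR's quasi-likelihood test over all regions, 36 gene desert regions (2.35%) were more accessible in aged liver at an adjusted p under 0.05, against 2.44% of all regions. A further 46 (3%) were less accessible, against 3.3% of all regions. The median log2 fold change was 0.00 in gene desert regions, against -0.04 over all regions and -0.09 in the 12473 autosomal intergenic regions that lay within 50 kb of a TSS and overlapped no promoter (TSS ± 200 bp). Fold changes ran from -3.53 to 1.96 on the log2 scale, and 94 regions moved by more than 1 in either direction. The changes that passed were unequal in size, the median being 1.01 for the increases and -1.79 for the decreases on the log2 scale. Every aged sample lay above every young sample in 120 gene desert regions (7.84%, against 10.2% of all regions) and below every young sample in 123 (8.03%, against 11.6%). Of the called regions, 35 of the 36 increases and 35 of the 46 decreases had such a gap between the ages.

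These counts depended on single libraries and on the scaling. Without young replicate 1 the test called 2 regions more and 7 less accessible, and without young replicate 2 it called 6 and 10. Over all regions the counts also fell, from 1360 and 1838 to 55 and 133 without young replicate 1 and to 196 and 250 without young replicate 2. Leaving out aged replicate 1 gave 6 and 11, aged replicate 3 gave 6 and 16, and aged replicate 4 gave 58 and 61. Increases made up 43.9% of the calls with TMM normalization, 58.2% with DESeq2 (64 more and 46 less accessible), 23.5% when total counts set the scale (20 and 65) and 57.5% with offsets fitted on abundance (23 and 17). Over all regions these shares were 42.5%, 58.8%, 15.6% and 32.2%, respectively.

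**Figure D1:**
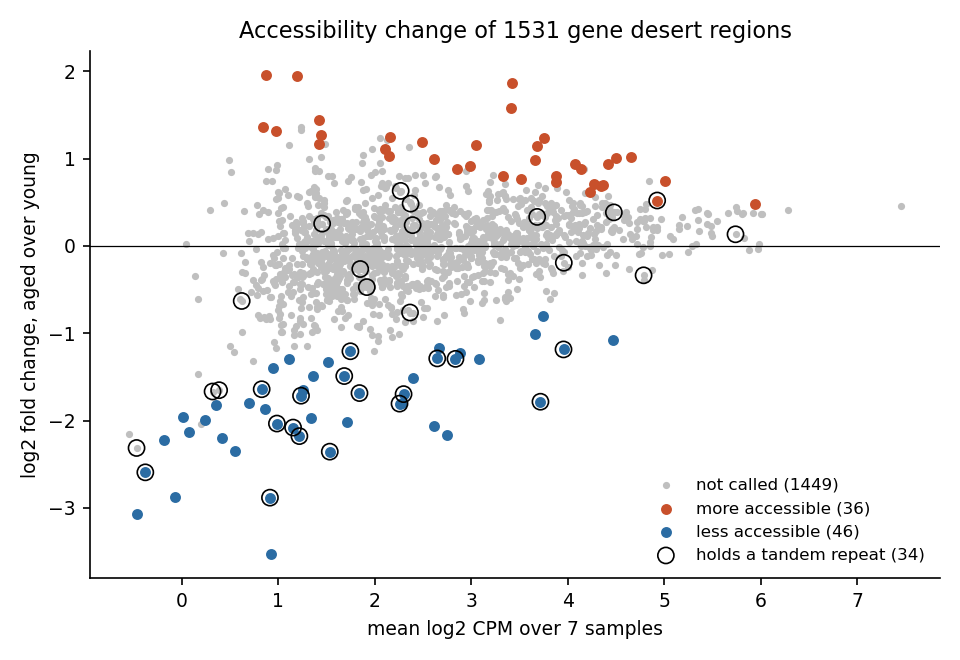
Log2 fold change (aged over young, edgeR) of the 1531 gene desert regions against their mean log2 CPM over the 7 samples. The 36 called increases and 46 called decreases are coloured, and rings mark the 34 regions with a tandem repeat, 17 of which are among the decreases.

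Gene desert regions were weaker and more variable than other regions. Their median level was 4.97 CPM, against 6.52 CPM in intergenic regions nearer to a TSS, 27.6 CPM in promoters and 8.79 CPM over all regions. Consequently the counts behind them were low, with a median of 20 to 57 counts per region in the aged samples and 32 to 138 in the young ones, and 294 regions had under 10 counts in aged replicate 3. The median SD of log2 CPM within an age was 0.361, against 0.324 in nearer intergenic regions and 0.188 in promoters. Together they held 1.28% ± 0.0469 (n = 3, SD) of the counts in young and 1.25% ± 0.0568 (n = 4, SD) in aged liver, a difference smaller than the spread between samples.

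Relative to the nearer intergenic regions, however, the gene desert regions stood higher in aged liver. Their mean log2 CPM minus that of the nearer intergenic regions was -0.45, -0.39 and -0.39 in young replicates 1 to 3 and -0.27, -0.30, -0.35 and -0.34 in aged replicates 1 to 4. All 4 aged samples were above all young samples, with means of -0.408 ± 0.033 (n = 3, SD) and -0.315 ± 0.0376 (n = 4, SD). The nearer intergenic regions lost share over the same samples, from 14.4% ± 0.249 (n = 3, SD) to 13.6% ± 0.435 (n = 4, SD) of all counts, where 3 of the 4 aged samples lay below all young ones and aged replicate 2 overlapped them. Against all other regions the gap was -0.858 ± 0.0394 (n = 3, SD) in young liver, and -0.815 ± 0.0548 (n = 4, SD) in aged liver, and 2 of the 4 aged samples lay above the young ones.

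The fold change rose with the strength of the region. When all regions were split into deciles of mean log2 CPM, the fold change of gene desert regions had a log2 median of -0.20 in the weakest decile (295 regions), -0.03 in the fifth decile (159) and 0.23 in the eighth (90). In the strongest decile, which held only 17 of them, it was 0.37. Nearer intergenic regions followed the same order from -0.43 to 0.27, and gene desert regions lay above them in 9 of the 10 deciles, by up to 0.229. The exception was the ninth decile (44 regions), where the difference was -0.012. Offsets fitted on mean abundance, which remove such a trend by construction, moved the median over gene desert regions to 0.16. The weakest 5 deciles held 1090 (71.2%) of the gene desert regions, 41 of the 46 decreases and 15 of the 36 increases. Strength was the mean over all 7 samples, so a fall in aged liver itself moves a region to a weaker decile. The relation of change to strength, and this split of the calls, are therefore partly set by the sorting.

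**Figure D2:**
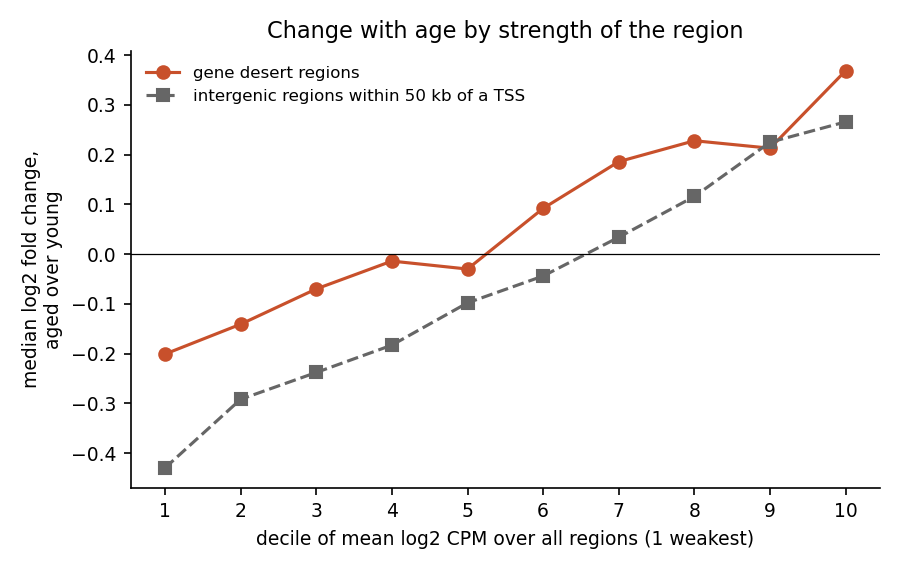
Median log2 fold change (aged over young) in deciles of mean log2 CPM over all regions, for gene desert regions and for intergenic regions within 50 kb of a TSS. Both lines climb from the weakest to the strongest decile, and the gene desert line is the higher one in all but the ninth.

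Calls were spread over all distances beyond 50 kb. Of 1084 regions at 50 to 100 kb from a TSS, 25 (2.31%) were called more and 28 (2.58%) less accessible, with a median log2 fold change of -0.03, beside 2.44% and 3.3% of all regions. At 100 to 250 kb (405 regions) the counts were 10 (2.47%) and 17 (4.2%) with a median of 0.08, and at 250 to 500 kb (42 regions) 1 (2.38%) and 1 with a median of 0.07.

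Regions are named by the protein-coding genes that flank them on either side, which may lie far away. Among the 8 largest increases without overlap between the ages, 2 shared an interval. Between Adgrb3, which encodes an adhesion receptor of the brain, and 4931408C20Rik, the region chr1:26235670-26236514 measured 0.648, 0.718 and 1.15 CPM in young replicates 1 to 3 and 3.07, 2.75, 1.17 and 4.84 CPM in aged replicates 1 to 4. Aged replicate 3 almost met the highest young sample and the other aged samples lay well above. The log2 fold change was 1.96 ± 0.44 (SE; edgeR, adjusted p = 0.0247). A second region in this interval, chr1:26262549-26263889, measured 5.09, 4.12 and 8.39 CPM in young and 14.3, 16.3, 16.6 and 19.7 CPM in aged liver. Every aged sample was clear of the young ones, and the log2 fold change was 1.58 ± 0.24 (SE; edgeR, adjusted p = 0.00765). Adgrb3 ended 406 and 432.8 kb away, and these were the only gene desert regions of the interval.

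The best supported increase lay between Slc6a15, which encodes a transporter of neutral amino acids, and the predicted gene Gm21293. The region chr10:103673014-103674235 measured 4.44, 4.57 and 6.25 CPM in young and 16.9, 17.8, 18.4 and 19.3 CPM in aged liver. Every aged sample was far above every young one, and the aged mean was 18.1 ± 1.04 CPM (n = 4, SD) against 5.09 ± 1.01 CPM (n = 3, SD). The log2 fold change of 1.86 ± 0.19 (SE) had the smallest adjusted p among gene desert regions (edgeR, adjusted p = 0.00211), and it passed in all 21 alternative fits. Of its sequence, 80.9% was soft-masked as repeats, as was 87% of the stronger region beside Adgrb3.

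Between Trim52 and Slitrk1, 1245.8 and 1526.5 kb away, the latter a gene of a neuronal membrane protein of the synapse, chr14:107381615-107382311 measured 0.741, 1.17 and 0.987 CPM in young and 4.74, 5.49, 3.5 and 1.91 CPM in aged liver. Aged replicate 4 was the lowest of its group but above all young samples, and the log2 fold change was 1.95 ± 0.40 (SE; edgeR, adjusted p = 0.0175). The other gene desert region of this interval, chr14:107268351-107268621, was singled out after the values had been seen because it was called in the opposite direction. It measured 2.78, 2.00 and 0.493 CPM in young and 0, 0.196, 0.233 and 0.509 CPM in aged liver, from 0 to 4 counts per aged sample, and aged replicate 4 overlapped young replicate 3. Its fitted log2 fold change was -3.07 ± 0.72 (SE; edgeR, adjusted p = 0.0281), -2.42 without aged replicate 1 and -4.12 without aged replicate 4, and the call was lost in 7 of 19 alternative fits, among them those without young replicate 1, young replicate 2, aged replicate 1 or aged replicate 3. By summed counts its level in aged liver was 0.175 times that in young liver, with a 95% counting interval of 0.0626 to 0.398. Between Sall1 and Tox3, which encode transcription factors, chr8:90058630-90059220 measured 1.3, 1.89 and 0.822 CPM in young and 3.78, 4.51, 5.14 and 2.93 CPM in aged liver, without overlap (log2 fold change 1.44 ± 0.34 SE, edgeR, adjusted p = 0.0286). The remaining named increases lay between Tdrd3 and the protocadherin gene Pcdh20, between Epha4 and Pax3, a transcription factor of muscle and neural crest, and between Zeb2 and Acvr2a, the latter an activin receptor gene. Their log2 fold changes were 1.36, 1.32 and 1.27, with adjusted p-values of 0.0437, 0.0481 and 0.0332 (edgeR). These calls were fragile. That beside Pcdh20 was lost in 15 of 20 alternative fits, that beside Pax3 in 11 of 20, that between Zeb2 and Acvr2a in 8 of 21 and that between Sall1 and Tox3 in 7 of 20, while the increase beside Slitrk1 and the weaker one beside Adgrb3 were lost in 4 and 3 of 20. Leaving out young replicate 1, young replicate 2 or aged replicate 1 ended each of these 6 calls. The region beside Pax3 is no desert site in the strict sense, as it lay 1.0 kb beyond the end of that gene, although 96.6 kb from its TSS. Apart from the regions beside Slc6a15 and the stronger one beside Adgrb3, these increases rested on 5 to 54 counts per aged sample.

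Of the 8 largest decreases without overlap between the ages, 2 lay in the interval beside Ccnd1, whose regions are described together further on, and 3 held tandem repeats. In the tandem repeat between Lrriq3 and Negr1, a neuronal adhesion gene, chr3:155403153-155404185 measured 6.85, 7.14 and 1.97 CPM in young and 0.439, 0.588, 0.934 and 1.15 CPM in aged liver. Young replicate 3 lay between the other young samples and the aged ones, and the log2 fold change was -2.88 ± 0.47 (SE; edgeR, adjusted p = 0.00908). Between Fgf10, which encodes a fibroblast growth factor and lay 393.8 kb away, and Nnt, which lay 149.1 kb away, chr13:119185930-119186317 measured 3.24, 2.57 and 0.987 CPM in young and 0.351, 0.392, 0.233 and 0.255 CPM in aged liver. The aged values were 1 to 4 counts per sample, so the level in aged liver was 0.125 times that in young liver with a counting interval of 0.0557 to 0.246 (95%, from the exact binomial interval of 9 aged among all counts), and the fitted log2 fold change was -2.88 ± 0.51 (SE; edgeR, adjusted p = 0.0117).

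Between Epha6, an ephrin receptor gene, and Nsun3, chr16:60947508-60948414 measured 8.05, 7.07 and 4.93 CPM in young and 1.14, 1.18, 1.87 and 1.27 CPM in aged liver. The ages were far apart (log2 fold change -2.36 ± 0.30 SE, edgeR, adjusted p = 0.00486), and 98.3% of this sequence, also a tandem repeat, was soft-masked. In the tandem repeat between Gdf6, which encodes a growth factor of the bone morphogenetic protein family, and 2610301B20Rik, chr4:10137051-10137732 measured 7.31, 6.16 and 2.96 CPM in young and 0.615, 0.785, 0.934 and 2.55 CPM in aged liver. Aged replicate 4 was the highest of its group and young replicate 3 the lowest of its own, with a narrow gap between them (log2 fold change -2.18 ± 0.44 SE, edgeR, adjusted p = 0.0172), and the log2 fold change was -2.93 without aged replicate 4. The regions between Mdfic and Tfec and between Gpm6a and Adam29 had log2 fold changes of -2.35 and -2.19 (edgeR, adjusted p = 0.0135 and 0.0254). Leaving out young replicate 1 or young replicate 2 ended the calls in these last 2 regions and in those beside Gdf6 and Fgf10, which were lost in 3, 6 and 5 of 20 and 2 of 19 alternative fits, respectively. The region between Gpm6a and Adam29 has 27 near-identical copies elsewhere in the genome. The authors filtered reads for mapping quality, and whether the remaining reads stem from several places was not tested.

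**Figure D3:**
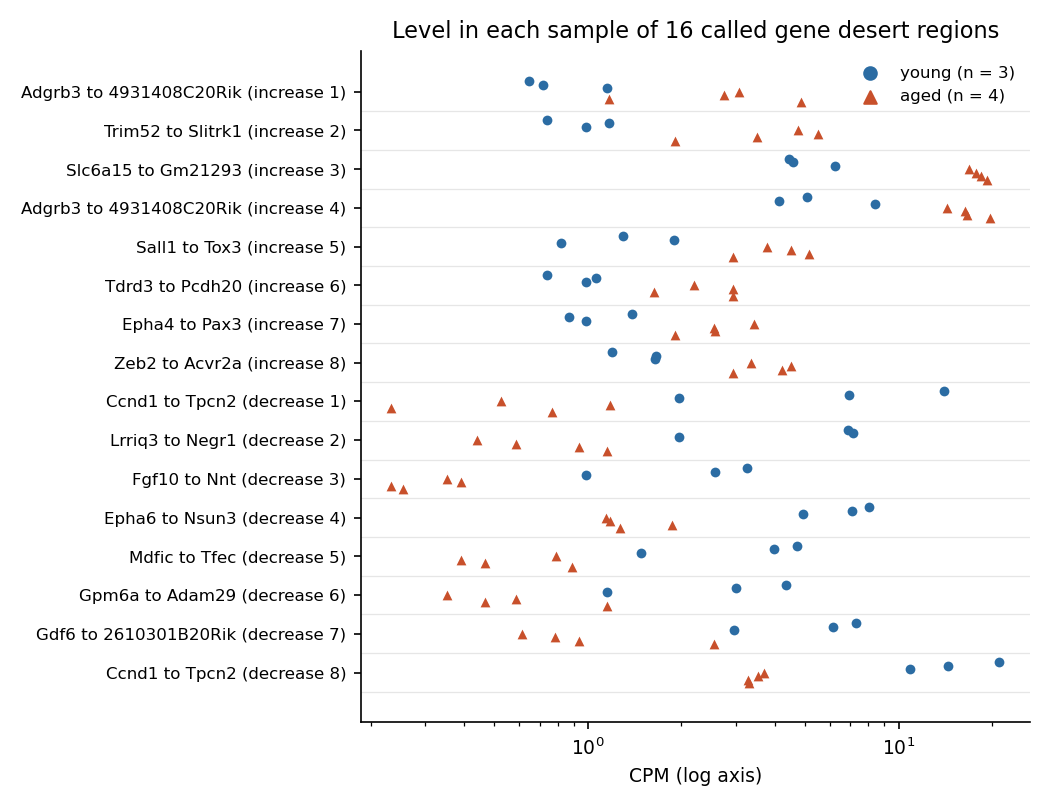
CPM (log axis) in each sample of the 8 largest called increases and 8 largest called decreases without overlap between the ages. Each row is a region named by its flanking protein-coding genes, and in all 8 decreases the leftmost young point is replicate 3.

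Young replicate 3 stood closer to the aged samples in most decreases. Over the 46 decreases the median log2 CPM was 2.82, 2.68 and 1.96 in young replicates 1 to 3 and 0.68, 0.73, 0.87 and 1.12 in aged replicates 1 to 4, and young replicate 3 was the lowest young sample in 39 of them. Over the 36 increases the medians were 2.65, 2.81 and 3.10 in young and 4.01, 3.98, 4.14 and 3.88 in aged liver, and here young replicate 1 was the lowest of the young in 25. Without young replicate 3 the test called 31 regions more and 48 less accessible.

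Tandem repeats made up a large part of the decreases. A region was taken to hold a tandem repeat when at least 80% of the bases in a 200 bp stretch matched the base a fixed 10 to 100 bp further on, a measure chosen after the values had been seen. This held for 34 gene desert regions (2.22%, against 1.42% of all regions). Of these, 17 (50%) were less and 1 (2.94%) more accessible in aged liver, beside 3.3% and 2.44% of all regions, and their median log2 fold change was -1.29. By contrast, only 29 (1.94%) of the 1497 regions without such a repeat were less accessible, and 35 (2.34%) were more accessible. Tandem repeats were therefore present in 37% of the decreases and 2.78% of the increases, against 13.1% and 1.76% over all regions. Outside gene deserts the same kind of region also decreased often, with 223 (29.4%) called less and 23 (3.03%) more accessible among 758.

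Soft-masked repeats without a tandem structure were counted apart. Of 97 gene desert regions with more than 50% soft-masked sequence, 18 (18.6%) were less accessible. Of the 77 among them that held no tandem repeat, 4 (5.19%) were less and 3 (3.9%) more accessible, beside 3.3% and 2.44% of all regions tested, and the difference from the tandem repeats was not tested. Among the 1420 regions that were neither, 25 decreased (1.76%) and 32 increased (2.25%). The level over the 34 tandem repeats had a median log2 CPM of 2.86, 2.68 and 2.24 in young replicates 1 to 3 and 1.36, 1.35, 1.52 and 1.91 in aged replicates 1 to 4. Each aged sample was below each young one, and replicate 3 was again the lowest young and replicate 4 the highest aged sample. Among these regions were 3 neighbours between Sall3, a zinc finger transcription factor gene, and the galanin receptor gene Galr1 on chromosome 18, all called less accessible. The only other gene desert region of that interval had a log2 fold change of 0.63 and did not pass, and the median over the 4 was -1.80. Across the 21 alternative fits the number of tandem repeats called less accessible ranged from 3 (without young replicate 1, young replicate 2 or aged replicate 1) to 20 (without young replicate 3), and it was 7 with offsets on mean abundance and 5 of 18 when 10 counts were required in every sample. Their median log2 fold change was -0.35 with that count minimum and between -1.49 and -1.08 in the other 20 fits.

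**Figure D4:**
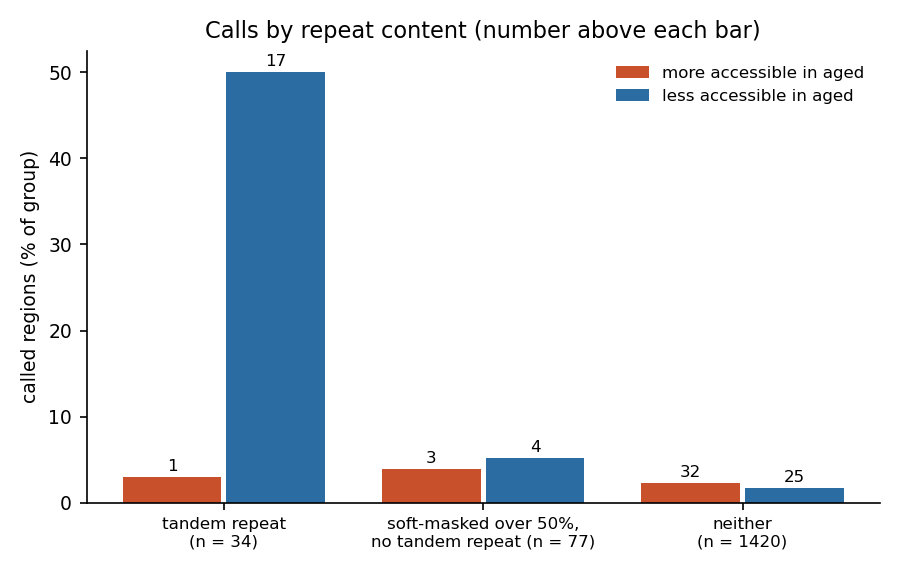
Share of gene desert regions called more or less accessible in aged liver (percent of each group, number of regions above the bar), split by repeat content. The tall bar is the 17 of 34 tandem repeats that were less accessible, against 5.19% and 1.76% in the other groups.

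Near-identical copies were rare. They were found for 22 gene desert regions, which had at least 1 copy elsewhere that covered 80% of the region at 95% identity or more, and 1 of these (4.55%) was more and 5 (22.7%) were less accessible, beside 2.44% and 3.3% of all regions tested. Leaving them out gave 35 increases and 41 decreases.

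The interval with most decreases lay between Ccnd1, which encodes cyclin D1, a driver of entry into the cell cycle, and Tpcn2, which encodes a cation channel of lysosomes. The interval was singled out after the values had been seen. It held 9 gene desert regions within 104 kb, of which 6 were less accessible in aged liver, 0 were more accessible, and the median log2 fold change was -1.23. Of all regions tested, 3.3% were less and 2.44% more accessible. The strongest of them, chr7:145043241-145044135, measured 34.9, 36.9 and 29.1 CPM in young and 16.6, 12.7, 18.0 and 16.8 CPM in aged liver. All aged samples were close together and well below the young ones (log2 fold change -1.07 ± 0.15 SE, edgeR, adjusted p = 0.00575). Next to it, chr7:145040799-145041498 measured 21.1, 14.4 and 10.9 CPM in young and 3.69, 3.53, 3.27 and 3.31 CPM in aged liver, which gave a log2 fold change of -2.16 ± 0.25 (SE; edgeR, adjusted p = 0.00269).

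The largest fitted change of all gene desert regions was in the same interval. The region chr7:145056247-145057139, 116.3 kb from Ccnd1, measured 14.0, 6.95 and 1.97 CPM in young and 0.527, 1.18, 0.233 and 0.764 CPM in aged liver. The young samples spanned a wide range, the aged ones held 1 to 6 counts each, and the log2 fold change was -3.53 ± 0.57 (SE; edgeR, adjusted p = 0.00927). Without young replicate 1 it was -2.82. By summed counts the level in aged liver was 0.0829 times that in young liver, with a 95% counting interval of 0.0493 to 0.131. Further decreases at 68.7, 108.9 and 147.7 kb from Ccnd1 had log2 fold changes of -1.23, -1.51 and -2.06 (edgeR, adjusted p = 0.0343, 0.0105 and 0.00764). The regions at 85.1, 90.8 and 170.8 kb did not pass, with log2 fold changes of -0.17, -0.44 and 0.16 (edgeR, adjusted p = 0.768, 0.358 and 0.779).

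The decrease was also measured at Ccnd1 itself. Its promoter region had a log2 fold change of -1.29 ± 0.28 (SE; edgeR, adjusted p = 0.0212), and a region centred 3.24 kb upstream of the TSS had -1.04 ± 0.19 (SE; edgeR, adjusted p = 0.012), whereas the Tpcn2 promoter region had 0.18 ± 0.18 (SE; edgeR, adjusted p = 0.582). Over the 9 regions of the locus that were not gene desert regions, 2 were less and 0 more accessible and the median was -0.42. None of the gene desert regions of the interval was a tandem repeat or had a near-identical copy, and at most 17.4% of any of them was soft-masked. Between 4 and 6 of them passed the test in each of the 21 alternative fits, with 4 when young replicate 1 was left out.

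**Figure D5:**
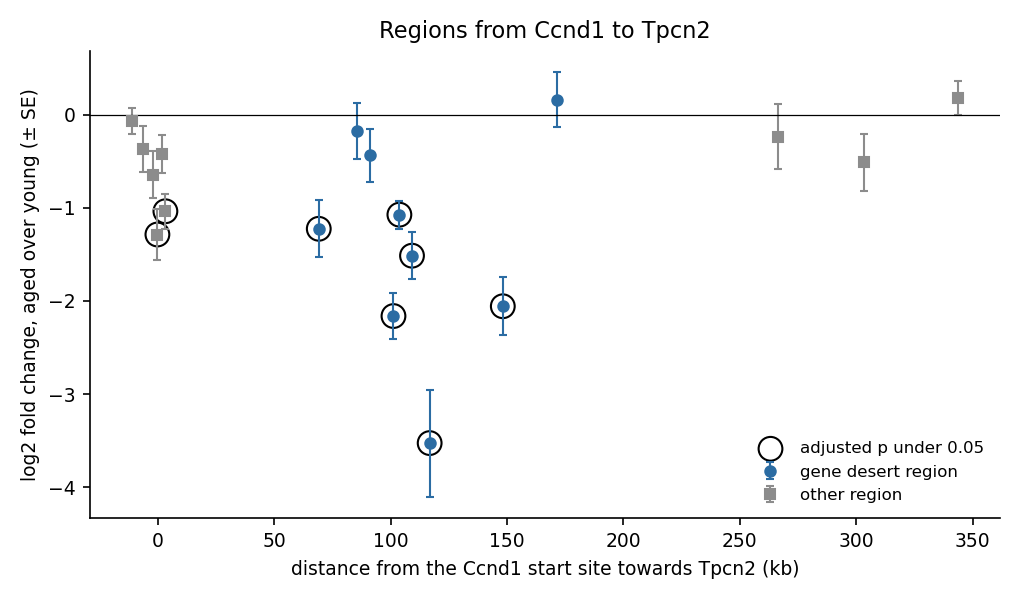
Log2 fold change (aged over young, ± SE, edgeR, 3 young and 4 aged samples) of the regions from Ccnd1 to Tpcn2 by distance from the Ccnd1 TSS in kb. Of the 9 gene desert regions (circles), 6 are ringed as less accessible, as are 2 of the 9 other regions (squares), both near the Ccnd1 TSS.

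Most deserts held few accessible regions and few changes. The 1531 regions fell into 638 intervals between adjacent protein-coding genes, of which 288 held 1 region and 74 held at least 5. A called region was present in 69 intervals, at least 2 in 8, and both directions in 1, that between Trim52 and Slitrk1. The counts that follow are to be read beside the 2.44% of all regions that were more and the 3.3% that were less accessible. The intervals with most regions were Adgrl2 to Adgrl4 on chromosome 3, between adhesion G protein-coupled receptor genes (17 regions, 1 more accessible), Camk1g to Plxna2 on chromosome 1 (15, 1 less) and Cdh26 to Cdh4 on chromosome 2 (15, 2 less). Plpp3 to Gm12728 on chromosome 4 (14) and Akr1d1 to Trim24 on chromosome 6 (12), the former beside a lipid phosphatase gene and the latter beside a reductase gene of bile acid synthesis, held 0 called regions, with medians of -0.05 and -0.08. In the imprinted domain of chromosome 7, 2 of 3 regions between Snrpn and Ndn were more accessible, with log2 fold changes from 0.40 to 1.24 over the 3. This interval was picked after the values had been seen because it held several calls.

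Across autosomes, gene desert regions were densest on chromosome 8 (130, or 10.3 per 10 Mb of known sequence) and most numerous on chromosome 2 (140). Chromosome 7 held 54, of which 6 were more and 7 less accessible, 6 of the latter in the interval beside Ccnd1. Over all regions 2.44% were more and 3.3% less accessible. On chromosome 19, 0 of 28 were called, a small number to set against the 5.36% called over all gene desert regions.

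Genes of hepatocyte identity flanked some of these regions. Of 29 hepatocyte transcription factor genes, 10 flanked 42 gene desert regions, 2 of which were more (4.76%) and 1 less accessible (2.38%), with a median log2 fold change of 0.06. Of all regions tested, 2.44% were more and 3.3% less accessible. One increase lay beside Onecut1, which encodes a liver-enriched homeobox factor. Its other flanking gene was Wdr72. The region chr9:74655587-74657178 measured 9.07, 12.9 and 10.7 CPM in young and 18.6, 21.0, 19.8 and 14.1 CPM in aged liver. The ages did not overlap, and the log2 fold change was 0.73 ± 0.19 (SE; edgeR, adjusted p = 0.0394). The other lay between Mpdz and Nfib, the latter a nuclear factor I gene, where chr4:81514469-81514975 measured 12.8, 18.6 and 14.5 CPM in young and 25.9, 24.9, 25.9 and 23.3 CPM in aged liver. Here too every aged sample was the higher (log2 fold change 0.69 ± 0.16 SE, edgeR, adjusted p = 0.0261). Both calls were fragile, and 12 and 6 of the 21 alternative fits, respectively, did not pass.

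Prox1, a homeobox factor gene of hepatocytes and lymphatic vessels, flanked 11 of these regions, with a median log2 fold change of -0.30 and 1 called decrease, at a tandem repeat on its other side. Its strongest region, chr1:190041341-190044389, measured 70.0, 63.0 and 58.5 CPM in young and 63.0, 68.1, 68.9 and 50.4 CPM in aged liver. The ages overlapped, although young replicate 1 was the highest and aged replicate 4 the lowest of all samples (log2 fold change -0.04 ± 0.13 SE, edgeR, adjusted p = 0.893). Gata6 also flanked 11 regions and Foxa2, a pioneer factor gene, flanked 6, with 0 calls in either and medians of 0.14 and 0.05. The strongest regions flanked by Nr5a2 and Ptprc, by Med13l and Tbx3, by Nr2f1 (2548.1 kb away) and Arrdc3 (135.1 kb), and by Arrdc4 (1058 kb) and Nr2f2 (544.1 kb) had log2 fold changes of 0.18, -0.35, -1.15 and 0.34 and did not pass (edgeR, adjusted p = 0.782, 0.575, 0.153 and 0.561).

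Of 25 genes of liver metabolism and hormone response, 3 flanked 9 regions, with 0 calls and a median log2 fold change of 0.16. With 2.44% of all regions more and 3.3% less accessible, 9 regions are too few for 0 calls to be read as a difference. The strongest region between Adgra3 and Ppargc1a, a coactivator gene of gluconeogenesis and mitochondrial biogenesis, measured 20.4 ± 3.38 CPM (n = 3, SD) in young liver, and 23.0 ± 1.82 CPM (n = 4, SD) in aged liver. Those between Nyap2 and the insulin signalling adaptor gene Irs1 and between the growth hormone receptor gene Ghr and Fbxo4 had log2 fold changes of 0.13 and 0.40 (edgeR, adjusted p = 0.714 and 0.678). The latter was 1.47 without young replicate 2 and did not pass there either.

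Gene families that are known to border deserts were counted in the same way, to be read beside the same 2.44% and 3.3% of all regions. Of 149 developmental transcription factor genes, 21 flanked 52 regions, 2 more (3.85%) and 1 less accessible (1.92%), and the median log2 fold change was -0.19. The list of neural adhesion genes, drawn by name from the cadherin, protocadherin, contactin and related families and thus also holding Cdh5 of endothelium and Cdh17 of epithelium, had 30 of 135 genes beside 84 regions, 3 more (3.57%) and 6 less accessible (7.14%), with a median of 0.13. A list of 63 growth factor genes was drawn by name from the Bmp, Fgf, Wnt and Gdf families, so not all are secreted, and Fgf14 is not. Of these genes, 6 flanked 15 regions, with a median of -0.05. Among the 15 regions, 3 (20%), beside Fgf10, Fgf14 and Gdf6, were less accessible and 0 more. The decreases beside Fgf14 and Gdf6 were tandem repeats. Only 1 of 1464 olfactory and vomeronasal receptor genes bordered any, and neither of its regions was called.

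The strongest gene desert region lay 59.6 kb from Wdr5 and 75.9 kb from Rxra, the latter of which encodes the retinoid X receptor, the shared partner of many nuclear receptors of the liver. It spanned chr2:27596126-27600525 and measured 152, 173 and 120 CPM in young and 182, 167, 202 and 263 CPM in aged liver. Of the aged samples, 3 lay above all young ones, but the difference did not pass (log2 fold change 0.45 ± 0.16 SE, edgeR, adjusted p = 0.104). The next strongest lay between Ccdc25 and Scara3, Tshz3 and Zfp536, and Irf2bp2 and Tomm20, with log2 fold changes of 0.41, 0.37 and 0.37, none of which passed (edgeR, adjusted p = 0.0987, 0.0846 and 0.192). With offsets on GC content the regions beside Rxra, between Ccdc25 and Scara3 and between Tshz3 and Zfp536 did pass (edgeR, adjusted p = 0.0291, 0.0295 and 0.0369). With offsets on mean abundance their log2 fold changes were 0.04, 0.12 and 0.11. The region between Ccdc25 and Scara3 also passed without aged replicate 2 and with aged 2 and 4 summed, and the region between Irf2bp2 and Tomm20 passed with aged 2 and 4 summed (edgeR, adjusted p = 0.0458).

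The regions farthest from any TSS showed no called change either. Between Rgs18 and Brinp3, chr1:145972299-145973089 lay 447.3 kb from the nearest TSS and measured 4.07, 2.53 and 6.25 CPM in young and 7.29, 6.47, 7.24 and 4.2 CPM in aged liver. The ages overlapped through aged replicate 4 and young replicate 3 (log2 fold change 0.64 ± 0.32 SE, edgeR, adjusted p = 0.24). A neighbour at 425.3 kb had a log2 fold change of 0.33 (edgeR, adjusted p = 0.564). Between Hs3st1 and Rab28, regions at 404.8 and 371.8 kb had log2 fold changes of 0.16 and 0.59 (edgeR, adjusted p = 0.839 and 0.124). The strongest of the far regions lay between 9130204L05Rik, whose TSS was the nearest at 390.9 kb, and Pglyrp3, a peptidoglycan recognition protein gene 530.7 kb away. It measured 26.2 ± 4.41 CPM (n = 3, SD) in young liver, and 26.6 ± 5.32 CPM (n = 4, SD) in aged liver.

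In sequence, gene desert regions were poorer in G and C than other regions and lacked the features of promoters. Their median GC content was 44.96%, against 47.9% in nearer intergenic regions and 57.18% in promoters, and they held 9.25 CpG per kb, against 11.85 and 52.14. Within gene deserts, the decreases had a median GC content of 52.13% and a median level of 3.08 CPM, and the increases 43.64% and 12.3 CPM. These levels are means over all 7 samples, so the change itself enters them. With offsets fitted on GC content, 54 regions were called less accessible, among them all 46 decreases, and 57 more accessible, among them 35 of the 36 increases.

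Motif matches were counted on both strands in the middle 300 bp of the regions that were long enough, which left 1423 gene desert windows. The shares were not adjusted for base composition, which differs between the groups. The median GC content was 44.96% in gene desert regions, 47.9% in nearer intergenic regions and 57.18% in promoters. Without such an adjustment, matches to the C/EBP, FOXA and HNF4A motifs were more common than in nearer intergenic regions and promoters. The C/EBP motif TTGCNNAA occurred in 22% of gene desert windows, 17.5% of nearer intergenic windows, 8.05% of promoters and 14.5% of all windows. The FOXA motif TGTTTAC occurred in 8.08%, 7%, 2.93% and 5.88%, respectively. A match to the HNF4A motif occurred in 1.41% (only 20 windows), 0.881%, 0.296% and 0.743%. The AP-1 motif TGANTCA was found in 12.7% of gene desert windows and in 9.09% of all windows.

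The CTCF, ETS, NRF1 and E-box motifs were less common in gene deserts than over all windows. A match to the CTCF motif occurred in 1.34% of gene desert windows, against 2.87% of nearer intergenic windows, 0.759% of promoters and 1.71% of all windows. The ETS motif CCGGAAGT and the NRF1 motif, typical of promoters, each occurred in 0.211% of gene desert windows, against 4.18% and 4.62% of promoters. The E-box CACGTG was found in 5.06% of gene desert windows and 5.84% of all windows. Among the 43 decreases and 36 increases with a window, the E-box was present in 5 and 0, and the C/EBP motif in 7 and 10. The AP-1 motif was present in 5 and 5, the FOXA motif in 0 and 1, and the CTCF motif in 1 and 0. These differences were not tested. Full matches to the HNF1 and NFI motifs were rare, with 1 and 4 gene desert windows (0.0703% and 0.281%, against 0.0489% and 0.237% of all windows).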

How the data were processed

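The authors deposited raw counts for 7 ATAC-seq libraries, without normalization. According to the study's methods and the submitters' notes, the authors trimmed adapters (cutadapt 1.13), aligned to GRCm38 (Bowtie2 2.4.1), filtered for mapping quality and proper pairs, discarded mitochondrial reads and PCR duplicates, called peaks per library (MACS2 2.2.7), dropped blacklisted sites and counted reads with featureCounts wherever 2 or more libraries had a peak. Regions are therefore detected sites only. No molecular identifiers were used, so intervals cover counting error only.

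All 55680 regions were fitted with edgeR 4.0.16 in R 4.3.3 (TMM, quasi-likelihood test, age alone in the model, Benjamini-Hochberg adjustment at 0.05). The fit was tested on simulated data. The SE given with a log2 fold change was derived from the test, as its absolute value divided by the square root of the test's F statistic. CPM are TMM-scaled, and log2 CPM used a prior count of 2. Distances came from GENCODE M21, sequence features and soft-masking from the RefSeq GRCm38.p6 genome, and copies from minimap2 2.31 (80% of the region at 95% identity). DESeq2 1.42.0 and limma 3.58.1 (voom) were alternatives. Further tools were Python 3.11.15, numpy 2.4.6, pandas 2.3.3 and matplotlib 3.10.9.

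The regions, lists and tests were chosen with earlier results of these data known. Named regions are the 8 largest increases and 8 largest decreases past the threshold without overlap between ages, the 5 strongest (1 of them is not reported here), the 5 farthest from a TSS, the strongest beside each flanking liver gene of the lists and the 5 intervals with most regions. The Ccnd1 to Tpcn2 interval, the tandem repeat measure and intervals with several calls were added after the values were seen. Same-age libraries differed by more than sampling noise (chi-square per degree of freedom 2.38 to 6.06).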

Additional observations from a re-analysis of the deposited data

Results flagged for a closer look

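In the group of 4 aged samples, 1 of 47 values examined had a sample that stood apart from the others by Dixon's test at the 95% level, which chance alone gives in about 1 in 20 groups. The value is the level of chr5:119385066-119385429, between Med13l and Tbx3, a T-box transcription factor gene. Aged replicate 3 measured a log2 CPM of -0.16, from 3 counts, whereas the other aged samples lay between 1.64 and 1.82 and the young samples between 1.73 and 1.86. The difference between the ages did not pass the test (log2 fold change -0.35 ± 0.35 SE, edgeR, adjusted p = 0.575), and the cause of the low value was not tested.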

How the results depend on the processing

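The counts of called gene desert regions moved with many of the choices, their median log2 fold change lay between -0.113 and 0.161, and no called region that is named changed sign under any fit. Against 36 more and 46 less accessible regions, DESeq2 gave 64 and 46, total counts 20 and 65 (median -0.113), offsets on mean abundance 23 and 17 (median 0.161), offsets on GC content 57 and 54, voom 55 and 52, and a minimum of 10 counts in every sample 18 and 12 among 1144 regions. Total counts moved the median of all regions from -0.035 to -0.153, and gene desert regions lay 0.039 above it under both. Leaving out each sample gave 2 to 58 more and 7 to 61 less accessible regions. Summing 2 aged samples gave 10 and 22 (aged 1 and 3), 20 and 34 (aged 2 and 3), 25 and 36 (1 and 2), 29 and 36 (3 and 4), 38 and 49 (1 and 4), or 54 and 64 (2 and 4). Regions over 25000 bp from a TSS (3710) gave 74 and 126, and those over 100000 bp (447) gave 11 and 18 with a median of 0.08, where fewer or more regions set the counts. An adjusted p under 0.01 left 2 and 8. Choices made after seeing the data gave 35 and 29 without tandem repeats, 33 and 28 without regions soft-masked over 50%, and 27 and 40 over 50000 bp from any gene body. Apart from fewer regions, the cause of these shifts was not tested.

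With the replicate block the counts were 63 and 60. Deviations of same-numbered samples correlated at -0.119, 0.0565 and 0.0298, and 1 of 3 young samples correlated best with its own number, so the numbers were not taken to pair the samples. Regions near 0 that had not passed changed sign. In chr5:40810683-40811248 (Hs3st1 to Rab28) the log2 fold change was -0.078 with the block and -0.128 to 0.576 leaving out each sample. In chr3:91481690-91483907 (9130204L05Rik to Pglyrp3) it was -0.102 with total counts, -0.086 and -0.005 with abundance and GC offsets, -0.024 with the count minimum, -0.13 to 0.127 leaving out each sample, and -0.035, -0.042 and -0.045 with aged 3 summed with aged 1, 2 or 4. Beside Nr5a2 it was -0.011 with voom, -0.291 with the block and -0.273 to 0.432 leaving out each sample. Beside Prox1 it was 0.051 with GC offsets, 0.058 with the block, -0.082 to 0.063 leaving out each sample, and 0.011 with aged 1 and 4 summed. Between Ccnd1 and Tpcn2, chr7:145025012-145026205 was -0.583 to 0.02 leaving out each sample, and chr7:145110701-145112339 was -0.174 with the block and -0.114 to 0.384 leaving out each sample. Up to 294 gene desert regions of a sample held under 10 counts, and values in such regions have a wide counting error.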

Other observations

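Some intervals beside those described above gave further values. Hrh4 to Zfp521 on chromosome 18, picked after the values had been seen because it held several calls, had 2 regions. Both were more accessible in aged liver, with log2 fold changes from 0.62 to 0.88 and mean levels from 18.3 to 19.1 CPM. Of all regions tested, 2.44% were more and 3.3% less accessible. Hrh4 encodes a histamine receptor and Zfp521 a zinc finger protein. Over 10 regions between Zeb2 and Acvr2a, spread over 3189 kb, 9 had a log2 fold change above 0 and 1 was called more accessible. Over 9 regions between Agtr1b, an angiotensin receptor gene, and Tbl1xr1, 1 was above 0 and 1 was called less accessible. No rule set in advance named these 2 intervals. Of all gene desert regions, 50.3% were above 0. Intervals of like size were mixed, with 6 of 11 above 0 between Sall1 and Tox3, 4 of 9 between Sema6d and Slc24a5 and 5 of 9 between Cdh11 and Cdh5.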
